A study of Homo sapiens with 6 samples.

Results

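Cadherins and catenins are the core proteins of the adherens junction, and 10 of their genes were examined in RNA from human podocytes: the 7 cadherins CDH1, CDH2, CDH3, CDH4, CDH6, CDH11 and CDH13 and the 3 catenins CTNNB1, CTNNA1 and CTNND1. They were selected by gene name from the 20745 genes of the authors' deposited table, and the set was put together with the study's fold changes and p-values for these genes already known. All 10 had a row in the table. Of the 10, 8 had a base mean of at least 5, while 64.3% of all genes did. The base mean is the authors' mean count over libraries after scaling for library size. The study's methods also give 5 as a cutoff, but for reads of a gene in each sample, which is a different measure. CDH2 had the highest level of the 10 and CDH1 the lowest.

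The samples were cultures of AB 8/13, a conditionally immortalized human podocyte line that divides at a permissive temperature and differentiates at a restrictive one. There were 3 vehicle cultures and 3 cultures given 1 µM levamisole for 24 h, with 3 passages of the same line in each group. Levamisole, first used against parasitic worms, is given to children with nephrotic syndrome to lower their need for steroids. The labels place both groups in medium without serum, whereas complete medium is named for the vehicle cultures in the study's methods, and the sources used here do not settle which holds.

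The table gives each gene 1 base mean over all libraries of the authors' fit, and no value per culture or per group. The effect of levamisole on these genes, the study's own question, is therefore not given here, and no difference between genes could be set against the spread between cultures. The table does not name the libraries behind the mean. All 2915 base means under 0.75 differed from one another, more distinct values than so few reads over 6 libraries could give. The mean thus probably covers further libraries than the 6 labelled ones, which ones is not known, and each level below belongs to that mean. Depth per library is unknown, so no counting interval could be given, and fewer cells and less RNA per cell cannot be told apart in bulk RNA.

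In the adherens junction, cadherins of neighbouring cells bind each other outside the cell in the presence of calcium. Inside the cell, the tail of a classical cadherin binds beta-catenin and p120-catenin, and alpha-catenin links beta-catenin to actin filaments. Podocytes join their foot processes through the slit diaphragm, which is regarded as a modified adherens junction. Beta-catenin also acts in the nucleus as the effector of Wnt signalling.

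The sequences around the annotated starts of CDH2 and CTNNB1 are shown because the first is the cadherin of highest level and the second encodes the catenin that its tail binds. They come from RefSeq on GRCh38.p14, cover 250 bases before to 50 bases after each start, run 5′ to 3′ on the strand of the gene, and have CpG dinucleotides in capitals. CDH2 has 2 such windows, both on the minus strand, at chr18:28177081-28177380 and chr18:28036592-28036891, and CTNNB1 has 1 on the plus strand at chr3:41199255-41199554.
CDH2, first start: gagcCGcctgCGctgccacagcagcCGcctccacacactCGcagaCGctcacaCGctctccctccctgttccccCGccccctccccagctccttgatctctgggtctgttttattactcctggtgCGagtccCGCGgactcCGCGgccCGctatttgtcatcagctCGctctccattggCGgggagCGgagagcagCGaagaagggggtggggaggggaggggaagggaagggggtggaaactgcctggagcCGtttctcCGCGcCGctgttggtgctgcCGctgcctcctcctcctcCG
CDH2, second start: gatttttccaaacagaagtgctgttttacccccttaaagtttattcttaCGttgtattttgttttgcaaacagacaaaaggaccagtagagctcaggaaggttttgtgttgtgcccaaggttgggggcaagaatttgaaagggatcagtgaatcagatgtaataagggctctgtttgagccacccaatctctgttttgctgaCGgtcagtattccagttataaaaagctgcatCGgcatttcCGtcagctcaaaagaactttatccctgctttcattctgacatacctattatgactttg
CTNNB1: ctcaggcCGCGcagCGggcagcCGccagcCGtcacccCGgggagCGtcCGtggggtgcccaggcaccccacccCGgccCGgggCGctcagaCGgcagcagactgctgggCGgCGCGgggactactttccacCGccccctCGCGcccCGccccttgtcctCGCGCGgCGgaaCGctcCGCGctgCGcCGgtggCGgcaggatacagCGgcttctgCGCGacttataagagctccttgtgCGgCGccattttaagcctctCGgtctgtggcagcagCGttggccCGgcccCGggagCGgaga

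The first window of CDH2 held 23 CpG dinucleotides at a GC content of 67.0%, and the second held 4 at 40.7%. The CTNNB1 window held 39 CpG dinucleotides at a GC content of 74.0%, against a median GC content of 58.7% over 35116 windows of 300 bases. Reads in this protocol lie near the 3′ end of a transcript, so the base mean of CDH2 does not tell these starts apart. CACCTG, the E-box hexamer bound by repressors of the Snail and ZEB families, was searched on both strands, where it reads CACCTG or CAGGTG. Among the 9 windows found for 4 of the 10 genes, 1 held it, the first of the 2 windows of CDH4. Of all windows, 20.6% held it. The CDH4 windows begin at 61499171 and 61599511, well inside a gene that begins at 61252261, and no window at that outermost start was searched. The CTNNA1 windows also lie inside their gene, which begins at 138610967, with the nearest window at 138753175. Those at chr5:138874980-138875279 and chr5:138875150-138875449 overlap, so the 9 windows are not all separate promoters. CDH1, CDH3, CDH6, CDH11, CDH13 and CTNND1 had no window.

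N-cadherin, the product of CDH2, is the classical cadherin of neural and mesenchymal cells. CDH2 (ENSG00000170558) lies on the minus strand of chromosome 18 of GRCh38, from 27932879 to 28177946, and its canonical transcript in GENCODE 44 has 16 exons. Its base mean was 1805, which placed it at rank 360 of the 20745 genes, above 98.3% of them. CDH2 supplied 63.1% of the summed base mean of the 7 cadherins, and 30.1% once 24 further cadherins, the desmosomal and FAT ones among them, were counted.

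E-cadherin, encoded by CDH1, is the main classical cadherin of most epithelia. CDH1 (ENSG00000039068, chromosome 16, 68737292 to 68835537, plus strand) had a base mean of 0.546, close to the lowest of the table at 0.194, and 9.60% of genes lay below it. It supplied 0.0191% of the summed base mean of the 7 cadherins. So close to the lowest level of the table, CDH1 was not set in a ratio to the other genes.

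P-cadherin, encoded by CDH3, is the classical cadherin first described in placenta and has been placed at the slit diaphragm. CDH3 (ENSG00000062038) also lies on the plus strand of chromosome 16, from 68636189 to 68727468, and ends 9823 bases before CDH1 begins. Its base mean was 3.88, under the minimum of 5, with 33.3% of all genes below it. Both neighbours thus lay under the median of all genes, which was 21.8. The base mean of CDH2 was 465 times that of CDH3, and 515 times when each was divided by transcript length. With CDH3 under the minimum and no spread known, the size of both ratios is uncertain.

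R-cadherin, encoded by CDH4, is the classical cadherin first described in retina. CDH4 (ENSG00000179242, chromosome 20, 61252261 to 61940617, plus strand) had a base mean of 16.3, with 46.9% of all genes below it. Of the 4 classical cadherins of type I among these genes (CDH1, CDH2, CDH3 and CDH4), CDH2 alone had a base mean above the median of all genes.

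CDH6 and CDH11 encode cadherins of type II, K-cadherin of kidney and OB-cadherin of osteoblasts and other mesenchymal cells. CDH6 (ENSG00000113361, chromosome 5, 31193686 to 31329146, plus strand) had a base mean of 194, at rank 3965. CDH11 (ENSG00000140937, chromosome 16, 64943753 to 65126112, minus strand) had a base mean of 59.2, at rank 7757. Both lay above the median of all genes, and they supplied 6.78% and 2.07% of the summed base mean of the cadherins. The base mean of CDH6 was 3.28 times that of CDH11, and 2.58 times per kb of transcript.

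T-cadherin, encoded by CDH13, is held in the membrane by a lipid anchor and lacks the tail that binds catenins. CDH13 (ENSG00000140945) spans 1174 kb on the plus strand of chromosome 16, from 82626965 to 83800640. Its base mean was 781, at rank 1024, and it supplied 27.3% of the summed base mean of the 7 cadherins. CDH13 was the second of the cadherins in level after CDH2, whose base mean was 2.31 times as high, or 4.53 times per kb of transcript. CDH2 and CDH13 were the 2 cadherins above the 95th percentile of all genes, and CTNNA1 and CTNND1 were the other members there.

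**Figure D1:**
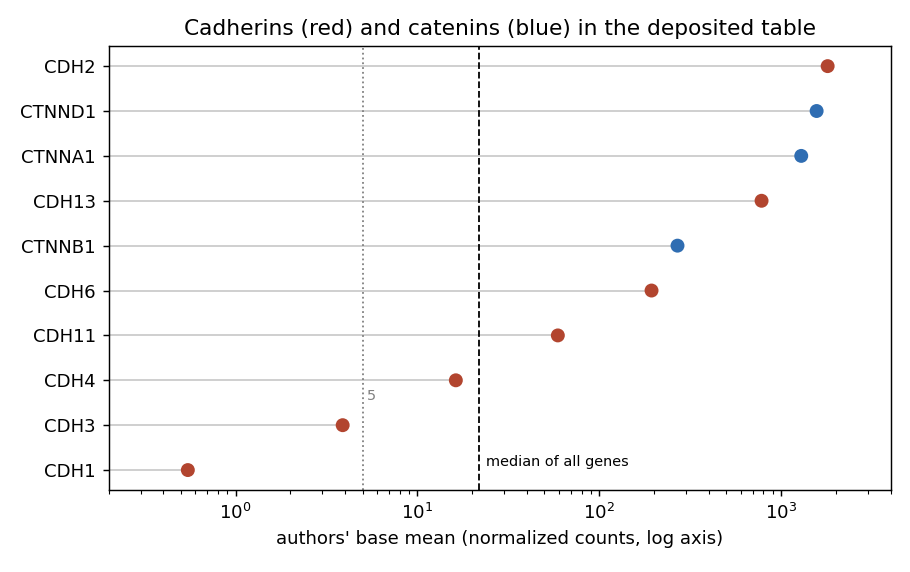
Base mean of each of the 10 genes on a log axis (normalized counts, 1 value per gene over the authors' libraries, so no error bar), with cadherins in red and catenins in blue. The dotted line marks 5 and the dashed line the median of all genes, 21.8. CDH2, CTNND1 and CTNNA1 lie between 1292 and 1805, while CDH4, CDH3 and CDH1 lie left of the median.

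The catenins CTNND1 and CTNNA1 lay close to CDH2 in level, and CTNNB1 lay below them. CTNND1 encodes p120-catenin, which binds the cadherin tail near the membrane and keeps the cadherin at the surface. CTNND1 (ENSG00000198561, chromosome 11, 57753243 to 57819546, plus strand) had a base mean of 1569, at rank 424. CTNNA1 encodes alpha-catenin, the link to actin. CTNNA1 (ENSG00000044115, chromosome 5, 138610967 to 138935034, plus strand) had a base mean of 1292, at rank 557.

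CTNNB1 encodes beta-catenin, which is shared between the junction and Wnt signalling. CTNNB1 (ENSG00000168036, chromosome 3, 41194741 to 41260096, plus strand) had a base mean of 269, at rank 3026, with 85.4% of all genes below it. It supplied 8.61% of the summed base mean of the 3 catenins, against 50.1% for CTNND1 and 41.3% for CTNNA1. The base mean of CTNND1 was 5.82 times that of CTNNB1, or 3.20 times per kb of transcript. For CTNNA1 the ratio to CTNNB1 was 4.79, or 4.67 per kb of transcript. The 3 catenins together had a summed base mean of 3130, which was 1.09 times the 2860 of the 7 cadherins.

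Division by transcript length changed the order of the 10 genes at 1 place. Since the reads start from the poly(A) tail, a transcript gives reads near its end whatever its length, and the deposited scale was kept as the first one. The canonical transcripts ranged from 3661 bases for CTNNB1 to 8540 bases for CDH6, of which 6170 were non-coding. Per kb of transcript, CDH2 had a base mean of 449, CTNNA1 344, CTNND1 235, CDH13 99.2 and CTNNB1 73.6. CTNNA1 thus passed CTNND1 on that scale, while the other 8 genes kept their places. Per kb of coding sequence all 10 genes kept the deposited order, with CTNND1 at 540 and CTNNA1 at 475. With no spread between cultures, neighbours such as CDH2 and CTNND1, whose base means differ by a ratio of 1.15, cannot be ordered firmly.

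**Figure D2:**
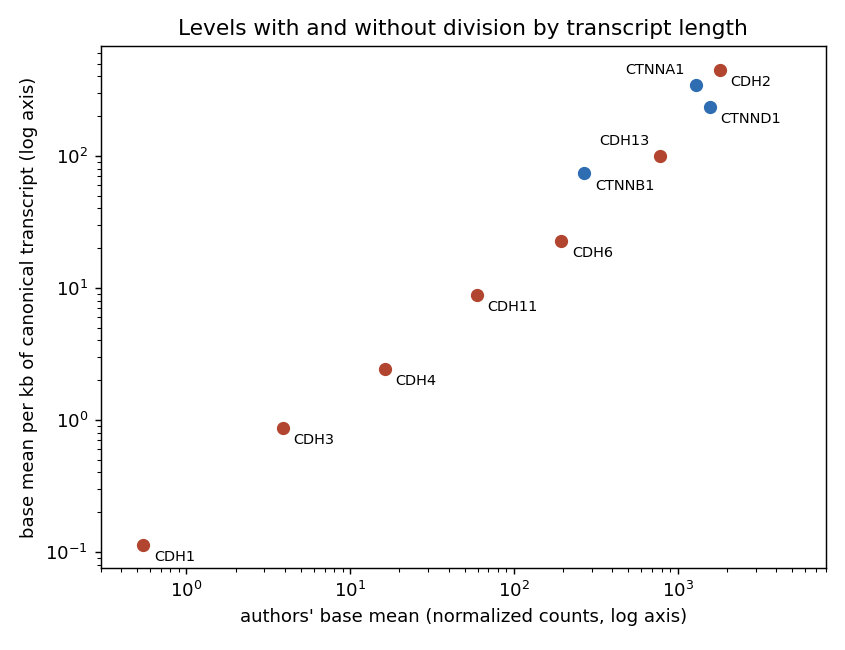
Base mean of each gene (horizontal, normalized counts) against base mean per kb of its canonical GENCODE 44 transcript (vertical), both on log axes, with cadherins in red and catenins in blue. CTNNA1 lies above CTNND1 on the vertical axis and left of it on the horizontal one.

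In GENCODE 44, no exon of another gene covered any of the last 500 exonic bases of the 10 genes on either strand. Of the 10 genes, 4 lie on chromosome 16, in the order CDH11, CDH3, CDH1 and CDH13, and their base means of 59.2, 3.88, 0.546 and 781 differ widely.

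The further genes of the junction were taken from lists. Of 18 other classical and related cadherins, 6 had a base mean of at least 5, led by the calsyntenin CLSTN1 at 233, and 8 had no row among the genes analysed here. CDH10, a cadherin of type II, followed CLSTN1 and CLSTN3 at 109 and lay between CDH6 and CDH11. CDH5, the cadherin of endothelium, had a base mean of 0.306. Of 14 desmosomal cadherins and plaque proteins, 8 had a base mean of at least 5. Among these were the desmosomal cadherins DSC3 at 525 and DSG2 at 465, so that the base means of both exceeded that of CDH6 and neither reached that of CDH13. JUP, which encodes plakoglobin, a relative of beta-catenin that also binds cadherin tails, had a base mean of 1745, which was close to that of CDH2. Of 16 genes in a list of FAT, Dachsous, flamingo and CDHR genes that also held CDH23 and RET, 7 had a base mean of at least 5. FAT1, which has been placed at the slit diaphragm, led these at 627.

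Of 20 other catenins and junction-actin linkers, 16 had a base mean of at least 5, and VCL, which encodes vinculin, the partner of alpha-catenin on actin, led at 2165. The other alpha-catenin genes were low, with CTNNA3 at 0.432 and no row for CTNNA2 among the genes analysed here, so CTNNA1 was the leading alpha-catenin. Of 20 genes of the beta-catenin destruction complex and its nuclear partners, 16 had a base mean of at least 5, led by GSK3A at 440, TCF7L2 at 390 and FBXW11 at 291. CTNNB1 itself, at 269, lay below these 3. Of 12 repressors of cadherin genes and related factors, 7 had a base mean of at least 5, with SNAI2 at 1436 and ZEB1 at 229. Both encode factors known to repress CDH1, and their part in its level was not tested. GRHL2, OVOL1 and OVOL2, which encode factors of epithelial identity, had no row among the genes analysed here. Of 12 genes of cadherin processing and turnover, 10 had a base mean of at least 5, led by PTPRM at 1289.5. ADAM10, the protease that sheds the outer part of CDH2 and CDH1 proteins, stood at 465.

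**Figure D3:**
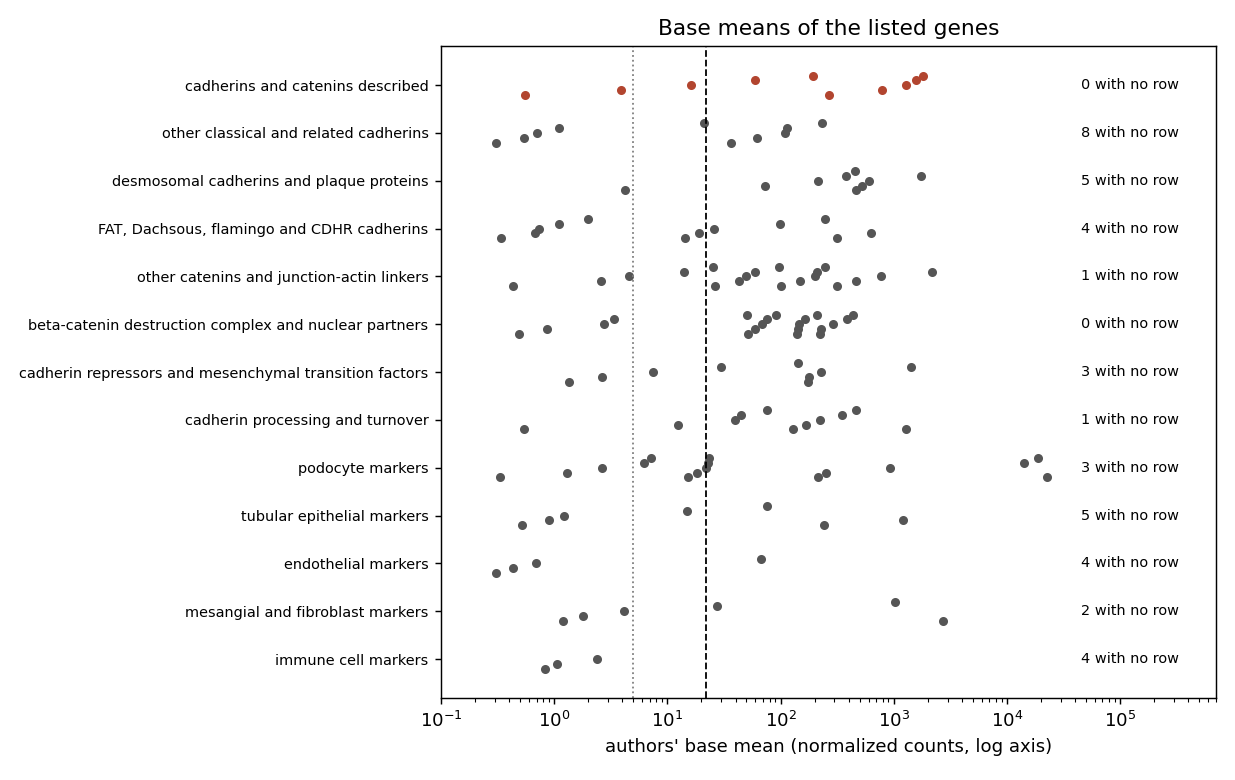
Base mean (normalized counts, log axis) of every listed gene that had a row, 1 point per gene and 1 line per list, with the number of genes that had no row at the right. The 10 cadherins and catenins are in red, the dotted line marks 5 and the dashed line the median of all genes. Points are shifted up and down only to keep them apart.

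The podocyte label was checked against 19 podocyte markers, of which 13 had a base mean of at least 5. The highest were MYH9, VIM and ACTN4, which many cell types express, while the slit diaphragm gene NPHS1 and the transcription factor gene LMX1B had no row among the genes analysed here. Counts at or above 5 were 4 of 12 for tubular markers, led by PAX8 at 1198, 1 of 8 for endothelial markers (EGFL7 at 67.5), 3 of 8 for mesangial and fibroblast markers, led by COL1A1 at 2732.5 and ACTA2 at 1021, and 0 of 7 for immune markers. The part of other cell types in the levels of the cadherins was not tested.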

How the data were processed

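Total RNA of 3 vehicle and 3 levamisole cultures was sequenced at its 3′ ends by an adapted CEL-seq method. According to the study's methods and the submitters' processing notes, the authors trimmed reads with Trim Galore 0.4.5, mapped them to GRCh38 with STAR 2.7.5a, counted them with HTSeq 0.11.0 on Ensembl release 95 and ran DESeq2 1.22.0 in R 3.5.3. The methods also name an alignment with BWA. The authors' deposited base mean is a signal: the mean normalized count over all libraries of their fit. The other 5 numeric columns hold the authors' own comparison (log2 fold change, its standard error, Wald statistic, p-value and adjusted p-value) and were not read. Depth per library is unknown.

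Ranks, percentiles (the percent of genes with a lower base mean), shares and ratios were computed with Python 3.11.15, NumPy 2.4.6 and pandas 2.3.3. The functions for percentiles, overlap at the 3′ end and motif search were checked on small made-up inputs, whereas ranks, shares and ratios were not. Figures were drawn with matplotlib 3.10.9. Positions and transcript lengths are from GENCODE 44 on GRCh38, a later annotation than the authors', which held 20599 of the 20745 gene identifiers. Promoter windows are from RefSeq. No test was made.

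The members and lists were chosen with earlier results of these data known, and 1 listed marker is not reported here. Named genes are the 10 members and, of each list, up to 4 genes of the highest base mean of at least 5 and up to 4, in list order, that had a base mean under 1 or no row. Alternatives were other minimums (1, 10 and 50), levels per kb and wider gene groups.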

Additional observations from a re-analysis of the deposited data

How the results depend on the processing

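No paired analysis was possible because each gene has 1 mean over the libraries and no value per culture. For the same reason no replicate was left out, no other normalization was tried and no error stands beside a level. The count of 8 of 10 genes at or above a base mean of 5 was 9 at a minimum of 1, 8 at 10 and 7 at 50. The share of CDH2 among the cadherins, 63.1%, was 63.2% among cadherins with a base mean of at least 5, 77.0% per kb of transcript, 58.1% per kb of coding sequence, 52.5% with the 10 genes of the list of other classical and related cadherins that had a row, 59.6% with these but without calsyntenins, and 30.1% with 24 cadherins that also include the desmosomal, FAT, Dachsous, flamingo and CDHR ones. The share of CTNNB1 among the catenins, 8.61%, was 11.3% per kb of transcript, 10.2% per kb of coding sequence and 5.52% with JUP, CTNNA3 and CTNND2. The ratio of catenins to cadherins, 1.09, was 1.12 per kb of transcript, 0.989 per kb of coding sequence and 0.813 with JUP and the same 24 cadherins, so which sum is larger depends on the scale and the genes taken. The settings per kb of coding sequence, without calsyntenins and with 24 cadherins for the share of CDH2 were chosen after seeing the data. Of 13 gene lists, the count at a minimum of 1 in place of 5 moved by over 1.5 times for 2, and at a minimum of 10 for 0.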
